A study of Mus musculus with 6 samples.

Results

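The nuclear genes that copy, transcribe and stabilise the mitochondrial genome and its RNA were examined in *Pdx1-Cre* lineage cells of WT and *mir-302* KO mouse embryos. The 10 genes were chosen by name and found by the symbol of their Ensembl gene, among 55414 genes in the count table. They are *Tfam*, *Tfb1m*, *Tfb2m* and *Polrmt* of transcription, *Polg*, *Polg2* and *Twnk* of replication, *Lrpprc* and *Slirp* of RNA stability, and the coactivator gene *Ppargc1a*. All 10 were in the table and 9 passed the filter on low counts, *Slirp* being the one that did not. They were set beside the 37 genes encoded by mitochondrial DNA itself, whose symbols start with mt-.

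There were 6 mRNA libraries from E10.5 embryos, 3 of WT (genotype label Pdx1-Cre+, Tdtomato+, miR-302WT) and 3 of KO (Pdx1-Cre+, Tdtomato+, miR-302KO). Both groups carried the *Pdx1-Cre* transgene and a Cre-dependent tdTomato reporter, and came from parents with 1 intact *mir-302* allele. Cells were sorted by tdTomato from the dissociated trunk, so they are every cell with a history of *Pdx1-Cre* activity there and not the pancreatic bud alone. The KO embryos lacked *mir-302* in all cells, since the deletion does not depend on Cre. Whether a library held 1 embryo or several was not given in the sources used here, so the p-values measure the spread between these libraries. The 5 hairpins of the cluster were listed with 0 counts in every library except 2 counts of *Mir302d* in KO replicate 3, so this assay, which reads polyadenylated RNA, does not check the genotype.

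Mitochondrial DNA is a small circle that encodes rRNAs, tRNAs and the mRNAs of respiratory chain subunits. Every protein that replicates or transcribes it comes from the nucleus. Transcription starts when TFAM bends the promoter and recruits the RNA polymerase POLRMT, and TFB2M helps to melt the DNA. The long transcripts are cut at the tRNAs, and the complex of LRPPRC and SLIRP then keeps the mRNAs stable and polyadenylated. A cell can therefore change its mitochondrial RNA through the nuclear factors, through the number of genomes, or through decay. Only RNA was measured here, so genome number and protein level were not.

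The deleted miRNAs and the sequences they could pair with in the 10 genes are shown first, since miRNAs lower their targets by pairing through the seed with the mRNA, mostly in its 3′UTR. The 3p arms of miR-302b, miR-302c and miR-302d in RefSeq (GRCm38.p6) are printed with bases 2 to 8, the seed, in capitals. miR-302b and miR-302d share a seed, and that of miR-302c lies 1 base further along the same letters. miR-367, of the same cluster, has another seed, which was not searched for here.
miR-302b-3p: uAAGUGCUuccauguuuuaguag
miR-302d-3p: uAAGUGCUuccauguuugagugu
miR-302c-3p: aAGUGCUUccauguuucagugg

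A match to the seed of miR-302b and miR-302d was sought in the longest annotated 3′UTR (GENCODE M21). A match was GCACTT in the sense strand with an A directly before or directly after it. It was found in 2 of the 10 genes, or 20.0%. Among 13768 tested genes with a 3′UTR it was found in 20.6%. The genes with a match were *Polg* and *Slirp*, with 1 match each, and the other 8 had none. *Slirp* is not among the tested genes, so the 2 shares are not of like sets. The 3′UTR searched was short for *Polg2* (53 bases), *Polrmt* (107), *Lrpprc* (169) and *Tfb1m* (296), which leaves little room for a match. The match, AGCACTT in each of these genes, is in capitals below.
Polg: ctccttttctgAGCACTTtggggcgt
Slirp: ctcagtgttacAGCACTTtctgcata

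The promoters were searched for letters bound by the regulators usually tied to these genes. NRF1, bound at GCGCATGCG, and GABP, an ETS factor bound at CCGGAAG, are textbook activators of nuclear genes for mitochondria. Only these exact letters were sought, on either strand, so a window without them can still hold other forms of the motifs. The promoter window ran from 250 bases before to 50 after the start. CCGGAAG was present in that of 6 of the 10 genes, against 8.86% of 32851 mouse promoters in RefSeq. The 6 were *Tfam*, *Polrmt*, *Polg*, *Polg2*, *Twnk* (in 1 of its 2 windows) and *Slirp*. GCGCATGCG was present in the window of *Tfb2m*, against 1.75% of promoters. The windows of *Tfb1m*, *Lrpprc* and *Ppargc1a* held neither set of letters. Those of *Tfb1m* and *Tfb2m*, the 2 genes whose KO libraries all lay below the WT libraries, are shown with that of *Tfam*. They are given 5′ to 3′ on the gene's strand (all 3 on the minus strand, GRCm38.p6), with a motif match in capitals.
Tfb1m, chr17:3557706-3558005: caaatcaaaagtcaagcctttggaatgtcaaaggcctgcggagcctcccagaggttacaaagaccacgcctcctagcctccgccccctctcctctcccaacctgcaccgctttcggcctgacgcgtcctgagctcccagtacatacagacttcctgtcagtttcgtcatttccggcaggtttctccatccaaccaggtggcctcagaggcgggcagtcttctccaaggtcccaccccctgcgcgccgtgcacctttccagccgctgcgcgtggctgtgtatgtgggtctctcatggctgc
Tfb2m, chr1:179546227-179546526: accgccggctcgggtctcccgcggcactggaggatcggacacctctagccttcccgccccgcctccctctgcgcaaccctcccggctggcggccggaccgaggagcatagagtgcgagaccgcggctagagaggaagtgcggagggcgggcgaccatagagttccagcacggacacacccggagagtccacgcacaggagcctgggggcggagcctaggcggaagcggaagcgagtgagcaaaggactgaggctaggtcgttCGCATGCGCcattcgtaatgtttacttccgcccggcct
Tfam, chr10:71237995-71238294: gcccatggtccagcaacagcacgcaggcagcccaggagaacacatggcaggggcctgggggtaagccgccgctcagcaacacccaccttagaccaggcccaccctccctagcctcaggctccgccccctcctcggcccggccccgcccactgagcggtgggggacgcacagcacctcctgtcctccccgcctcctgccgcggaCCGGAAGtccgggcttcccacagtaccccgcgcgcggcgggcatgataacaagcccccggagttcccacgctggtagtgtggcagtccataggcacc
The match in *Tfb2m* lies 12 bases after the annotated start and that in *Tfam* 47 bases before it. A match is a description of these letters and shows no binding in these cells.

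The libraries held 17352498 to 26634523 counts each. The progenitor list (*Pdx1*, *Sox9*, *Foxa2* and others) was detected in full, at 1695 to 2090 CPM summed in WT and 1841 to 2302 in KO. CPM is a gene's count as a share of its library, set to the same total in all libraries after TMM scaling, which allows for libraries of different composition. Globin and other blood markers summed to 16110 CPM in WT replicate 3, 6463 in KO replicate 1 and 339 in KO replicate 3, and to under 3 in the other libraries. Mesenchyme markers ran from 198 to 910 CPM in WT and from 82.6 to 884 in KO. Liver markers ran from 704 to 1807 CPM in WT and from 545 to 1894 in KO, neural markers from 19.2 to 43.7 and endothelial markers from 1.46 to 16.4 over all 6 libraries. The sum of each of these lists overlapped between genotypes. Within the progenitor list, *Gata4* was at 173, 249 and 222 CPM in WT and at 342, 334 and 322 CPM in KO. All its KO libraries lay above WT (DESeq2 adjusted p = 0.000928, edgeR adjusted p = 0.14), and the other progenitor markers overlapped. WT replicate 2 and KO replicate 1 share a number in their library code, whose meaning was not given.

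The mitochondrially encoded RNA was lower in every KO library than in any WT library. The mt- genes took 0.3455%, 0.418% and 0.442% of all counts in WT replicates 1 to 3, and 0.2255%, 0.2897% and 0.2229% in KO. The mean was 0.402% ± 0.0503 in WT and 0.246% ± 0.0379 in KO (SD, n = 3), a log2 difference of −0.71 or 0.611-fold. The 2-sided exact permutation p was 0.1, the smallest that 3 libraries against 3 can give. With WT replicate 3 and KO replicate 1 left out, the 2 libraries with the most globin, the log2 difference was −0.58. Between the 2 libraries that share a code number it was −0.89. The part of blood, mesenchyme and liver RNA in the result was otherwise not tested.

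In contrast, the summed counts of the 10 nuclear genes overlapped between genotypes. They came to 629, 664 and 598 CPM in WT and to 577, 618 and 648 CPM in KO, a log2 difference of −0.04 (exact permutation p = 0.6, 3 libraries each). KO replicate 1 lay below the WT range and the other 2 KO libraries within it. Each count of the nuclear genes was accompanied by 5.53, 6.28 and 7.44 mt- counts in WT and by 3.88, 4.63 and 3.50 in KO. This ratio, in which a difference in library scaling cancels, was 0.625-fold in KO (log2 difference −0.68, exact permutation p = 0.1). Abundant genes weigh most in the sum, *Lrpprc* alone giving 220.5 of a mean of 630.5 CPM in WT. With the mean of the genes' log2 counts in place of the sum, the log2 difference of the ratio was −0.61 (exact permutation p = 0.1). As in any bulk sample, fewer cells of a type and less RNA per cell cannot be told apart, nor can fewer mitochondria per cell, fewer genomes and less RNA per genome.

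**Figure D1:**
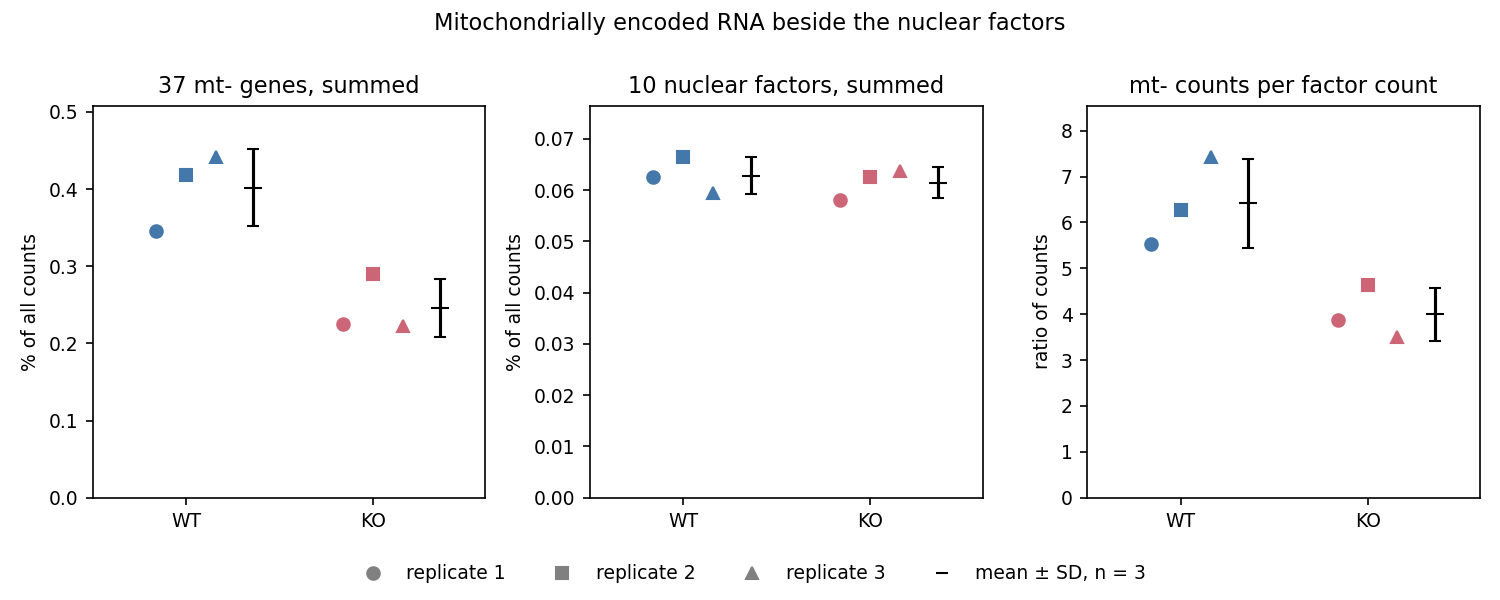
Share of all counts in the 37 mt- genes (left) and in the 10 nuclear genes (middle), in percent, and the ratio of these counts (right), for each WT (blue) and KO (red) library, with the mean ± SD of 3 libraries in black. The KO libraries lie below the WT libraries on the left (0.223% to 0.29% against 0.346% to 0.442%) and on the right (ratios of 3.50 to 4.63 against 5.53 to 7.44). In the middle, 2 of the 3 KO libraries lie within the WT range and KO replicate 1 just below it.

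Of the 4 genes of core transcription, 2 had all KO libraries below WT and 2 overlapped. *Tfb2m* (ENSMUSG00000026492.12), the initiation factor, was at 39.1, 34.1 and 35.0 CPM in WT and at 30.3, 27.9 and 30.8 CPM in KO. All 3 KO libraries lay below all 3 WT libraries. The log2 fold change was −0.28 ± 0.12 (SE), with a 95% interval of −0.56 to 0.0025, and it did not pass the test across all genes (edgeR adjusted p = 0.482).

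*Tfb1m* (ENSMUSG00000036983.8), its paralog, methylates the small mitochondrial rRNA. It was at 14.4, 14.5 and 14.6 CPM in WT and at 11.9, 13.2 and 10.3 in KO. The WT libraries lay close together and every KO library was below them in CPM. These levels rest on 306, 259 and 300 counts in WT and 320, 232 and 189 in KO. With so few counts, sampling alone gives a wider spread than that seen in WT, so the closeness is not read as low variance. The log2 fold change was −0.29 ± 0.16 (95% interval −0.66 to 0.07, edgeR adjusted p = 0.594). Groups in which all KO libraries lie below WT made up 7.99% of all 16353 genes tested, and the reverse 8.36%. Among the 9 nuclear genes tested, 2 had all KO libraries below and 0 had them all above.

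*Tfam* (ENSMUSG00000003923.15), which packages mitochondrial DNA as well as starting its transcription, was at 100.9, 92.1 and 88.1 CPM in WT and at 88.7, 89.9 and 82.6 CPM in KO. The groups overlapped, with 1 KO library below the WT range. The log2 fold change was −0.11, with an interval of −0.30 to 0.09 that covers a change of −18.9% to 6.49%. *Polrmt* (ENSMUSG00000020329.13), the polymerase, was at 90.8, 78.5 and 77.1 CPM in WT and at 85.2, 78.0 and 95.1 CPM in KO. It overlapped too, with its highest value in KO replicate 3, and its log2 fold change was 0.07 (−0.18 to 0.32).

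The 3 replication genes overlapped between genotypes. *Polg* (ENSMUSG00000039176.18), the catalytic subunit of the DNA polymerase and 1 of the 2 genes with a seed match, was at 98.2, 93.3 and 81.6 CPM in WT and at 82.0, 81.4 and 113 CPM in KO. KO replicate 3 stood above the WT range, and the other 2 KO libraries were close to its lowest value. Its log2 fold change was 0.02 (−0.33 to 0.37), so the interval covers a change of −20.4% to 28.9%. In all, 8.57% of its exon bases are shared with *Fanci* on the other strand in GENCODE M21.

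*Polg2* (ENSMUSG00000020718.13), the accessory subunit, was at 7.78, 9.33 and 6.85 CPM in WT and at 6.60, 6.10 and 7.35 CPM in KO, with a log2 fold change of −0.26 (−0.72 to 0.21). KO replicates 1 and 2 were under the WT range and replicate 3 was within it. *Twnk* (ENSMUSG00000025209.6), the helicase that opens DNA ahead of the polymerase, was at 81.3, 77.2 and 71.9 CPM in WT and at 71.6, 75.8 and 87.7 CPM in KO, a log2 fold change of 0.03 (−0.21 to 0.27). KO replicate 1 lay just below the WT range and replicate 3 above it. *Twnk* shares 12.6% of its exon bases with *Mrpl43*, and *Tfb1m* and *Polg2* share 3.94% and 3.03% of theirs with other genes.

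*Lrpprc* (ENSMUSG00000024120.13), whose protein holds mitochondrial mRNAs, was at 189.9, 255 and 216 CPM in WT and at 190.7, 241 and 213 CPM in KO. The KO libraries all lay within the WT range, and the log2 fold change was −0.04, with an interval of −0.35 to 0.27 (a change of −21.4% to 20.9%). Between the 2 libraries that share a code number, WT replicate 2 and KO replicate 1, the log2 difference was −0.42. *Ppargc1a* (ENSMUSG00000029167.14), encoding the coactivator PGC-1α, which drives the making of mitochondria in muscle and brown fat, was at 6.60, 9.72 and 7.28 CPM in WT and at 9.80, 5.36 and 7.84 CPM in KO. Both the highest and the lowest value came from KO, and the interval of the log2 fold change (−0.03) was the widest of the 9, from −0.68 to 0.61.

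Of the 9 nuclear genes tested, 6 had a negative and 3 a positive log2 fold change, with a median of −0.04 beside −0.03 over all genes. None passed edgeR at an adjusted p under 0.05, and of all genes tested 0% passed. An unadjusted p under 0.05 was reached by 0 of the 9, by 10.4% of all genes in either direction and by 3.97% in the lower direction. DESeq2, the tool named in the study's methods, called 0 of the 9 (adjusted p from 0.475 to 0.998), and 4.84% of the genes it gave an adjusted p in either direction, 0.642% of them lower in KO. The interval of 8 of the 9 genes lay above −0.71, the log2 difference of the mt- share. The exception was *Polg2*, whose interval just reaches it. This is a comparison of intervals and not a test of the difference. The mt- counts per count of each single gene were lower in every KO library for 6 of 9 genes (*Tfam*, *Tfb1m*, *Polrmt*, *Polg*, *Twnk* and *Lrpprc*), against 59.5% of all genes tested, so this count says little about these genes in particular.

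**Figure D2:**
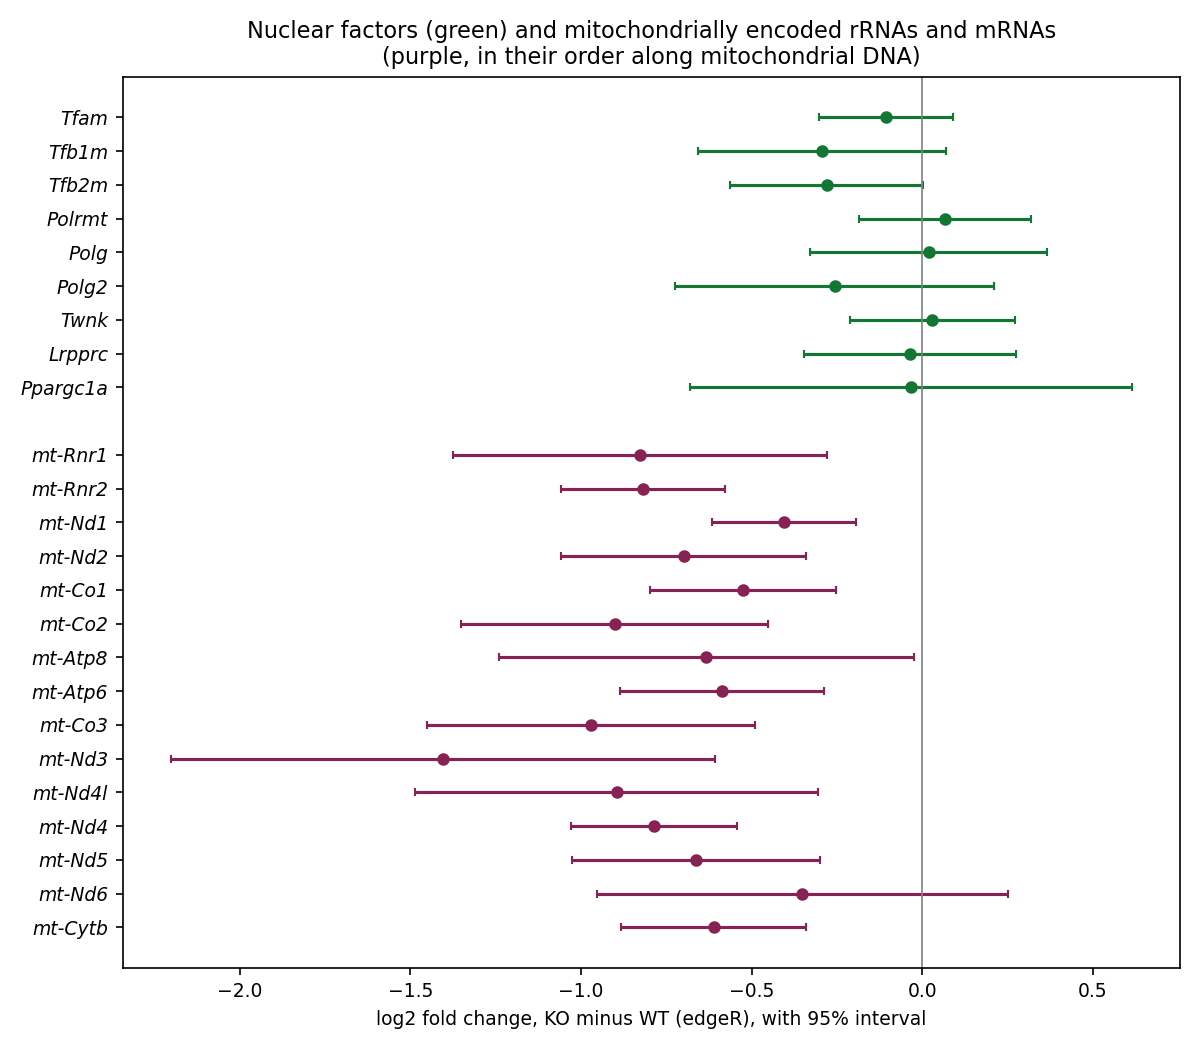
Log2 fold change of KO against WT with its 95% interval from edgeR, for the 9 nuclear genes tested (green) and the 15 mitochondrially encoded rRNAs and mRNAs (purple). The green intervals all include 0, that of *Tfb2m* by the smallest margin (upper end 0.0025), and 14 of the 15 purple intervals lie below 0.

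Per length, the WT levels of the 9 genes that passed the filter spanned a wide range. CPM per kilobase of the longest coding transcript (GENCODE M21) was 50.2 ± 7.50 for *Lrpprc* (SD, n = 3), then 22.5 ± 1.57 for *Tfam*, 22.0 ± 1.36 for *Twnk* and 21.9 ± 2.01 for *Polrmt*. These 3 did not differ beyond their spread. *Tfb2m* followed at 14.7 ± 1.09, and *Polg* (11.6 ± 1.09) and *Tfb1m* (10.3 ± 0.0523) were close to each other. The small SD of *Tfb1m* rests on 259 to 306 counts per WT library and is below the spread of sampling. *Polg2* was at 5.30 ± 0.833, below the 11.6 of the catalytic subunit it joins, and *Ppargc1a* was lowest of the 9 at 1.22 ± 0.254. The order depends on which transcript is used for the length.

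*Slirp* (ENSMUSG00000021040.16) had 2, 0 and 0 counts in WT and 0, 0 and 1 in KO. Its product forms a complex with LRPPRC in which each stabilises the other. In GENCODE M21, 97.8% of its exon bases also lie in exons of *Snw1* or *Alkbh1*, its neighbours on the other strand. *Snw1* had 123.2 to 140.1 CPM and *Alkbh1* 88.4 to 100.1 CPM, with overlap between genotypes. For the next counts, sharing was with exons of other genes on either strand. Among 282 protein-coding genes with over 90% of their exon bases shared, 263 (93.3%) had at most 3 counts over all libraries together. Among 15342 genes with none shared, 28.5% did. The handling of shared reads was not given in the sources used here. The counts of *Slirp* came to 3 in all, so no fold change is given, and with so much shared sequence they cannot be read as its expression.

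**Figure D3:**
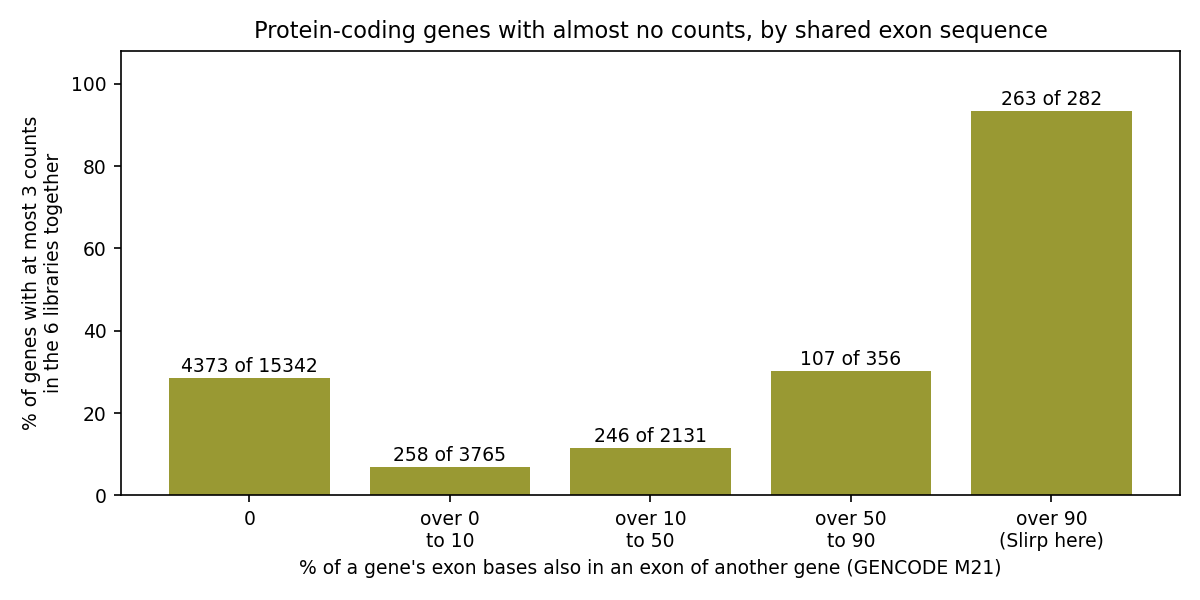
Percent of protein-coding genes with at most 3 counts over the 6 libraries, by the share of a gene's exon bases that also lie in an exon of another gene; the numbers over the bars are genes. The bar for over 90%, where *Slirp* lies, stands at 93.3%, and the others at 6.85% to 30.1%.

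All 16 mt- genes that passed the filter had a lower mean in KO, and the other 21 of the 37, all tRNA genes, had too few counts. The median log2 fold change of the 16 was −0.68, beside −0.03 over all genes. In 14 of the 16 the KO libraries all lay below WT, and 14 had an unadjusted p under 0.05, but edgeR called 0 of them (lowest adjusted p = 0.132). DESeq2 called 12, all lower in KO, and edgeR called 5 without the filter on low counts and 1 without WT replicate 2. The most abundant was *mt-Co3*, a subunit of cytochrome oxidase, at 834, 1105 and 1149 CPM in WT and 426, 685 and 466 CPM in KO. Its groups did not overlap, and the log2 fold change was −0.97 (edgeR adjusted p = 0.140).

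Among the 15 rRNAs and mRNAs the log2 fold change ran from −1.41 for *mt-Nd3* to −0.35 for *mt-Nd6*. *mt-Nd6* is the mRNA encoded on the opposite strand from the rest, and it overlapped between genotypes, at 6.03, 8.38 and 9.27 CPM in WT and 4.70, 6.67 and 7.24 CPM in KO. Its interval, −0.95 to 0.25, includes both 0 and the median of the others. A difference between the strands was not tested. The rRNAs *mt-Rnr1* and *mt-Rnr2*, which lie next to the promoter, had log2 fold changes of −0.83 and −0.82. *mt-Cytb*, near the far end of the same long transcript, had −0.61 and *mt-Nd1*, directly after the rRNAs, had −0.40.

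Some of this RNA may be counted in more than 1 place. The nuclear genome holds copies of mitochondrial DNA, and 6 listed copies had counts beside those of their mt- gene. *Gm28437* had 1.03 to 1.04 counts per count of *mt-Co3*, with which it is identical over 99.9% of the gene. *Gm28661* had 0.993 to 0.998 per count of *mt-Co2*, and *Gm28438* had 0.917 to 0.962 per count of *mt-Nd3*. The highest ratio was that of *Gm10925*, with 1.86 to 1.94 per count of *mt-Atp6*, and the reason was not tested. The ratio varied more for *Gm28439*, with 0.198 to 0.240 per count of *mt-Nd4*, and for *Gm29216*, with 0.458 to 0.501 per count of *mt-Co1*. The 6 rRNAs and mRNAs with a listed copy had a median log2 fold change of −0.84, and the 9 without one −0.66, with KO below WT in 6 of 6 and in 8 of 9. With the copies added to the sum, the log2 difference of the share was −0.74.

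The wider machinery was read from 45 further genes of mitochondrial gene expression, all of which passed the filter. Of these, 20 had a positive and 25 a negative log2 fold change, with a median of −0.03. Neither edgeR nor DESeq2 called any, and 0 had an unadjusted p under 0.05. The KO libraries lay all below WT for *Mterf4* and *Mtpap*, all above for *Gabpb1*, and overlapped for the other 42, so 2 and 1 of 45 genes stand beside the 7.99% and 8.36% of all genes tested.

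The genes of elongation and termination had a median of 0.05 (5 higher, 2 lower). *Mterf1a*, of the terminator protein family, had a log2 fold change of 0.41, and *Mterf4*, which brings an rRNA methyltransferase to the ribosome, −0.16. *Mterf4* was at 38.9, 40.3 and 40.1 CPM in WT and 37.7, 36.9 and 32.5 CPM in KO. Reads shared between *Mterf1a* and its paralog *Mterf1b* were not examined. The 12 genes of replication and the nucleoid had a median of −0.01 (6 higher, 6 lower). Those with the smallest p were the nuclease gene *Exog* at −0.20 and the topoisomerase gene *Top3a* at 0.21.

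The 9 genes of RNA processing and modification had a median of −0.05 (2 higher, 7 lower). Those with the smallest p were the rRNA methyltransferase genes *Mrm2* at −0.27 and *Nsun4*, the partner of *Mterf4*, also at −0.27. The other rRNA methyltransferase genes of the list, *Mrm1* and *Mrm3*, were at 0.21 and −0.06. The 11 genes of polyadenylation, stability and decay had a median of −0.07 (3 higher, 8 lower). *Grsf1*, of the mitochondrial RNA granule, was at 34.4, 39.7 and 33.3 CPM in WT and 58.3, 54.6 and 34.7 CPM in KO. Its values in KO replicates 1 and 2 were above every WT library and that in replicate 3 was within them, with a log2 fold change of 0.46 (edgeR adjusted p = 0.497). *Mtpap*, the mitochondrial poly(A) polymerase, was singled out after its values were seen, at 38.2, 40.3 and 45.7 CPM in WT and 36.3, 36.9 and 34.4 CPM in KO, a log2 fold change of −0.21 (edgeR adjusted p = 0.628). *Pnpt1*, of the RNA-degrading complex, was at −0.20.

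The 6 upstream regulators had a median of 0.01 (4 higher, 2 lower). GABP, whose motif was counted above, is made of the products of *Gabpa* and *Gabpb1*. *Gabpb1* was at 71.9, 68.4 and 70.3 CPM in WT and 92.0, 72.6 and 83.0 CPM in KO. All KO libraries were above WT, with a log2 fold change of 0.23 (edgeR adjusted p = 0.492). *Gabpa*, which holds the DNA-binding domain, overlapped, with −0.11.

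**Figure D4:**
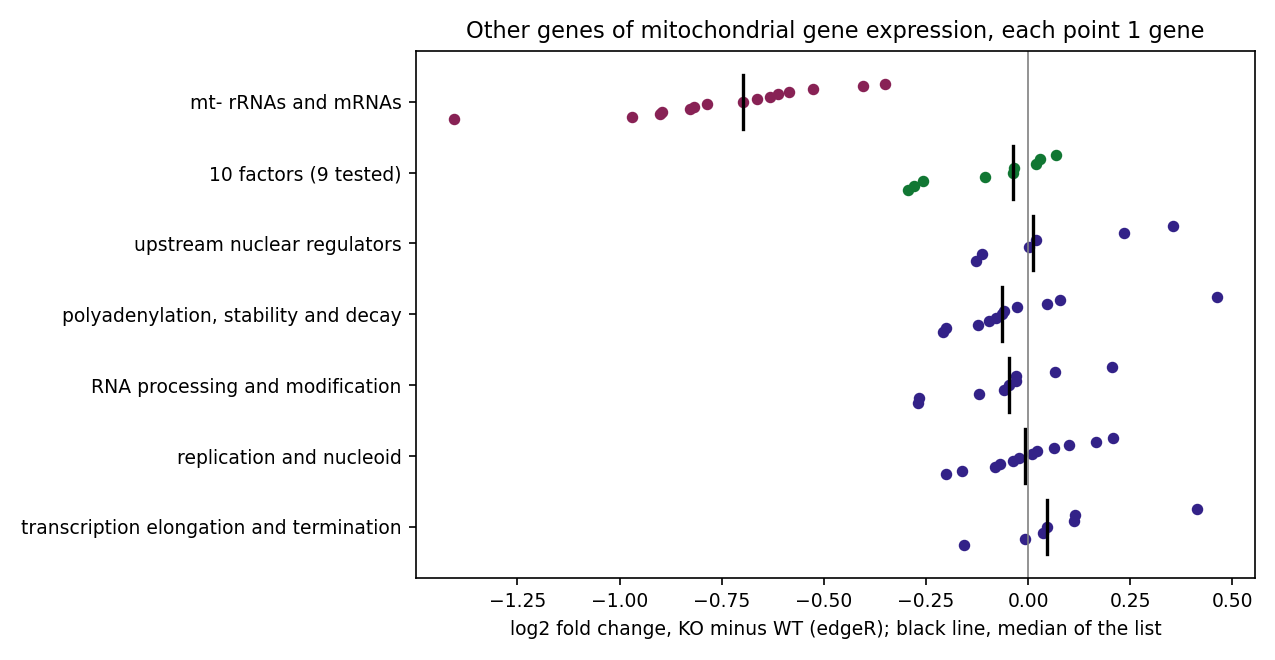
Log2 fold change of KO against WT for the 45 further genes by list (blue), the 9 nuclear genes tested (green) and the 15 mitochondrially encoded rRNAs and mRNAs (purple); each point is 1 gene and black lines are medians. The medians of the nuclear lists lie between −0.07 and 0.05, and every purple point lies below 0.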

How the data were processed

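Polyadenylated RNA of the sorted cells was amplified with SMART-seq v4 and sequenced in 6 libraries. The authors removed low-quality sequence, aligned reads with STAR to GRCm39 and deposited raw whole-number counts per gene made with GenomicAlignments. The gene annotation, the strand setting, the handling of reads shared between genes and tool versions were not given in the sources used here. Groups and replicate numbers came from the labels. From the deposited counts, genes were filtered with filterByExpr, scaled by TMM and tested with the quasi-likelihood test of edgeR 4.0.16 (R 4.3.3), with genotype as the only term, on all 16353 genes that passed, with calls made under 0.05 after Benjamini-Hochberg adjustment. The study's tool, DESeq2 1.42.0, was 1 of 12 other settings fitted, and 1 more was added after the data were seen. The steps were tested on simulated data. Summed shares were compared on the log2 scale by 2-sided exact permutation tests (SciPy 1.17.1), which cannot give a p under 0.1 here.

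Symbols were found for 94.0% of identifiers. Transcript lengths, exon overlaps and 3′UTRs came from GENCODE M21 and promoters and miRNAs from RefSeq, both on GRCm38, so no coordinates of the files' build are given; miR-302a-3p is named only. Copies were aligned with blastn 2.17.0+. Totals of 17352498 to 26634523 counts gave 7.98 CPM for *Polg2* and 220.5 CPM for *Lrpprc* in WT. The genes, lists and alternatives were chosen with earlier results of these data known. Named were all 10 genes, the most abundant and the extreme mt- rRNAs and mRNAs, and the 2 genes with the smallest edgeR p of each further list; other mt- genes, and *Mtpap*, were named after their values were seen.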

Additional observations from a re-analysis of the deposited data

How the results depend on the processing

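None of the 10 nuclear genes and none of the 45 further genes was called by edgeR or DESeq2 under any of the settings run. Over all genes, edgeR called 0, with 1700 at an unadjusted p under 0.05, DESeq2 called 701, edgeR without the filter on low counts 264, and edgeR without WT replicate 2 called 217 (range over the 6 fits that each leave out 1 library, 0 to 217). Of the mt- genes, 12 were called by DESeq2, 5 without the filter and 1 without WT replicate 2 (range 0 to 1). The cause was not tested. The mt- share kept its direction throughout, from −0.83 to −0.64 (log2) when 1 library was left out, and so did its ratio to the nuclear genes, from −0.79 to −0.57. *Tfb1m* stayed between −0.36 and −0.17 and *Tfb2m* between −0.30 and −0.22 in those fits. The direction of 4 genes with a log2 fold change near 0 turned with 1 library left out: *Polg* ranged from −0.12 to 0.11, *Twnk* from −0.024 to 0.10, *Lrpprc* from −0.13 to 0.10 and *Ppargc1a* from −0.24 to 0.19. The median of the 9 genes ranged from −0.13 to 0.05, the latter without WT replicate 2. Leaving out WT replicate 3 and KO replicate 1 together, chosen after seeing the data, turned *Lrpprc* to 0.052 and gave a median of −0.14. With the replicate block, edgeR called 0 genes and the log2 difference of the mt- share was −0.71 (exact permutation p = 0.25, the smallest 3 pairs can give). The correlations of same-numbered libraries, as deviations from their group means, were −0.211, 0.251 and 0.078. Not every library correlated best with its own number. With 3 libraries per group, these values cannot show whether a shared number marks a pairing. The intervals of *Ppargc1a* and *Polg2* were the widest of the 9 genes, and *Slirp*, with 3 counts in all, could not be compared.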
